A study of Homo sapiens with 6 samples.

Results

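Nucleotides are built along 2 routes. De novo synthesis assembles the purine ring step by step on phosphoribosyl pyrophosphate (PRPP) until inosine monophosphate (IMP) is formed, and assembles the pyrimidine ring before PRPP is attached, whereas salvage enzymes recycle bases and nucleosides. Ribonucleotide reductase then turns part of the ribonucleotide pool into the deoxynucleotides that DNA synthesis consumes. The enzymes of these routes are common targets of cancer and immunosuppressive drugs, among them inhibitors of IMP dehydrogenase, thymidylate synthase and ribonucleotide reductase.

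The 33 genes described here encode enzymes of purine and pyrimidine nucleotide synthesis, chosen by symbol from a fixed list of de novo and salvage enzymes, out of 36459 gene symbols in the table. They were divided into a purine arm of 15 genes, a pyrimidine arm of 8 genes and a deoxynucleotide arm of 10 genes. All 33 passed the filter on low counts that left 14626 genes to be tested, with estimated counts per library between 641 for TK2 and 9852 for NME2. The RNA came from PC9, an established human non-small cell lung cancer (NSCLC) line with an activating EGFR mutation. Parental PC9 cells, given no drug, were compared with persister PC9 cells, the survivors of 6 days in 15 µM erlotinib, an EGFR kinase inhibitor, with 3 poly-A RNA libraries of each. According to the study's methods, each parental library was an independent culture and each persister library pooled several independently treated cultures. Pooling averages over cultures, so the spread of the persister libraries cannot be compared directly with that of the parental libraries. Exposure to the drug and the persister state cannot be told apart in this design, and a single cell line was used.

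The libraries held between 29476725 and 34893782 estimated gene counts. The first principal component held 82.4% of the variance. No pair of libraries of a condition agreed within sampling noise, since the chi-square statistic divided by its degrees of freedom was 3.62 or more in every pair. Of 8 epithelial and lung adenocarcinoma markers 7 were tested, and their summed level was 8140 to 8640 CPM (counts relative to the total of the library, scaled by TMM) in the parental libraries and 6840 to 7180 CPM in the persister libraries. These markers went both ways, with 3 higher (KRT7, CDH1 and EGFR) and 4 lower (EPCAM, KRT8, KRT18 and KRT19). NKX2-1, a lung lineage factor, was at or below 0.0343 CPM throughout. The 8 markers of blood, endothelium and fibroblasts summed to 15.4 to 16.8 CPM in parental and 28.2 to 31.7 CPM in persister libraries. Most of this was COL1A1, and CD3E was at 0. Of these markers 5 were tested, and they also went both ways. By mean CPM, COL1A1 rose from 10.2 to 28.3 and PDGFRB from 0.363 to 1.04, whereas PECAM1 fell from 4.37 to 0.214. PTPRC and CD14 did not pass the test, and COL1A2 was at or below 0.191 CPM. The part of these shifts in the results below was not tested.

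Across the 33 genes, 17 differed between persister and parental PC9 in edgeR's quasi-likelihood test at an adjusted p under 0.01, 10 of them higher and 7 lower in persister cells. That is 51.5% of the list, beside 56.8% of all genes tested, 28.7% higher and 28.1% lower. These same shares of all genes stand beside the counts of arms, steps and other lists below. A change of more than 1.5-fold was found for 6 genes, or 18.2% of the list beside 23.9% of all genes, and the 2 groups of libraries did not overlap for 21 genes, or 63.6% beside 71.3%. The median log2 fold change was -0.005 over the list and -0.0061 over all genes tested, and the median size of change was 0.198 and 0.326. As a group these genes changed about as often as genes at large, and in both directions. Values are relative to total mRNA, and in bulk libraries fewer cells of a kind and less RNA per cell cannot be told apart.

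PRPS1, PFAS, ADSL, CAD, CTPS1, UCK2, NME1, RRM2, RRM2B and SAMHD1 rose, and IMPDH2, GMPS, ADSS, CTPS2, NME2, TYMS and DUT fell. By TPM, a level divided by transcript length that can be compared between genes, the summed level of the whole list was 3840 ± 87.2 (SD, n = 3) in parental and 4000 ± 36.4 in persister libraries, with the highest parental library at 3920 and the lowest persister library at 3960. Annotated and not effective lengths were used, which affects the level of short transcripts such as those of NME2 relative to longer ones.

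**Figure D1:**
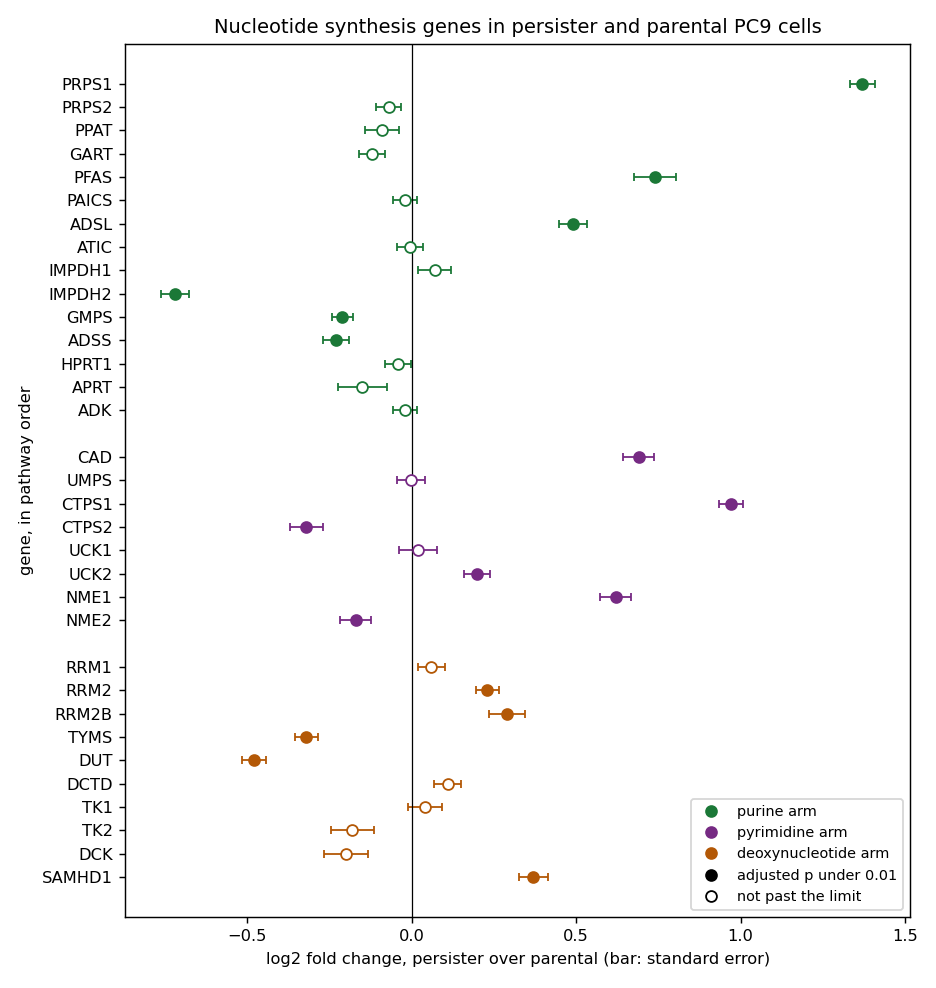
Log2 fold change of each of the 33 genes, persister over parental PC9, in pathway order with the purine arm at the top, the pyrimidine arm in the middle and the deoxynucleotide arm at the bottom. Bars are standard errors from 3 libraries of each condition, and filled points have an adjusted p under 0.01. Changes ran from -0.72 for IMPDH2 to 1.37 for PRPS1, and 16 genes were not past the limit.

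In the purine arm 3 genes rose, 3 fell and 9 were not past the limit, so 40.0% changed beside 56.8% of all genes tested. The median log2 fold change was -0.035. The largest change of the list was that of PRPS1 (ENSG00000147224, chrX:107628428-107651993, GRCh38), a PRPP synthetase that makes the sugar donor for both rings. Its level was 80.2, 83.3 and 82.1 CPM in the parental libraries and 206, 212 and 218 CPM in the persister libraries. Every persister library lay more than 100 CPM above every parental library. The rise was 2.59-fold, a log2 change of 1.37 (SE 0.0381, edgeR adjusted p = 3.21e-10). PRPS2, its isoenzyme, was at 119, 125 and 122 CPM in parental and 117, 117 and 114 CPM in persister libraries. These groups did not overlap, but the log2 change of -0.07 did not pass the test (adjusted p = 0.0991). The summed level of both synthetases per length was 193 ± 8.39 TPM in parental and 346 ± 10.5 TPM in persister cells.

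Of the 6 enzymes that carry PRPP to IMP, 2 rose and 4 did not pass the test. PFAS, which forms the formylglycinamidine intermediate, was at 23.1, 26.6 and 22.5 CPM in parental and 39.8, 40.0 and 40.6 CPM in persister libraries, a rise of 1.67-fold (log2 0.74, SE 0.0626, adjusted p = 1.59e-06). ADSL, which removes fumarate in the routes to both IMP and AMP, was at 50.3, 52.2 and 54.0 CPM in parental and 74.2, 71.4 and 73.7 CPM in persister libraries. It rose by 0.49 on the log2 scale (SE 0.0431, adjusted p = 2.27e-06). The other enzymes of the route had small differences. PPAT, the enzyme of the committed step, had a log2 change of -0.09 (adjusted p = 0.127), and GART, which carries several early activities on 1 protein, one of -0.12 (adjusted p = 0.0153). PAICS, which adds the carboxyl group and aspartate, was at -0.02 (adjusted p = 0.647) and ATIC, which closes the ring, at -0.0049 (adjusted p = 0.924). The 6 genes together summed to 574 ± 9.51 TPM in parental and 605 ± 15.9 TPM in persister libraries.

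PPAT and PAICS lie head to head on chromosome 4. The most counted transcripts of the 2 genes start 126 bases apart on opposite strands, and the 125 bases between these starts lie outside the annotated exons. The interval (GRCh38, chr4:56435616-56435740, plus strand) is shown because 2 members of the route, neither of which passed the test, share it.
PPAT-PAICS interval: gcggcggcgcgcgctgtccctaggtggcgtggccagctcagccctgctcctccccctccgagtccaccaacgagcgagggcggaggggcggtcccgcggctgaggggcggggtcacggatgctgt
PPAT was at 35.3 to 38.4 CPM in parental and 33.5 to 35.7 CPM in persister libraries. PAICS was at 210.0, 208 and 209 CPM in parental and 206, 214 and 198 CPM in persister libraries. The groups overlapped for both genes.

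Of the 4 genes that lead from IMP to GMP or AMP, 3 fell and 1 did not pass the test. IMPDH2 (chr3:49024325-49029447), the IMP dehydrogenase isoform that dominates in most proliferating cells and limits GTP synthesis, had the largest fall of the list. It was at 217, 232 and 221 CPM in parental and 130, 138 and 139 CPM in persister libraries, a log2 change of -0.72 (SE 0.0421, adjusted p = 8.79e-08). No persister library reached the lowest parental one. IMPDH1, the other isoform, was at 85.1, 96.8 and 89.8 CPM in parental and 92.9, 95.2 and 96.9 CPM in persister libraries, with overlapping groups and a log2 change of 0.07 (adjusted p = 0.232). GMPS, which aminates XMP to GMP, was at 222, 216 and 220 CPM in parental and 192, 190 and 189 CPM in persister libraries (log2 change -0.21, SE 0.0332, adjusted p = 0.000228). ADSS, now named ADSS2, opens the branch to AMP. It was at 106, 102 and 99.1 CPM in parental and 88.4, 87.9 and 85.9 CPM in persister libraries (log2 change -0.23, SE 0.0401, adjusted p = 0.000448). Both branches from IMP thus held a gene that fell, and the 4 genes summed to 618 ± 17.5 TPM in parental and 491 ± 6.67 TPM in persister libraries.

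None of the 3 purine salvage genes passed the test. HPRT1, which recycles hypoxanthine and guanine, had a log2 change of -0.04 (adjusted p = 0.451), APRT, which recycles adenine, one of -0.15 (adjusted p = 0.0993) and ADK, adenosine kinase, one of -0.02 (adjusted p = 0.635). APRT had the widest spread, with parental libraries from 62.3 to 79.2 CPM around persister libraries from 63.3 to 66.4 CPM.

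**Figure D2:**
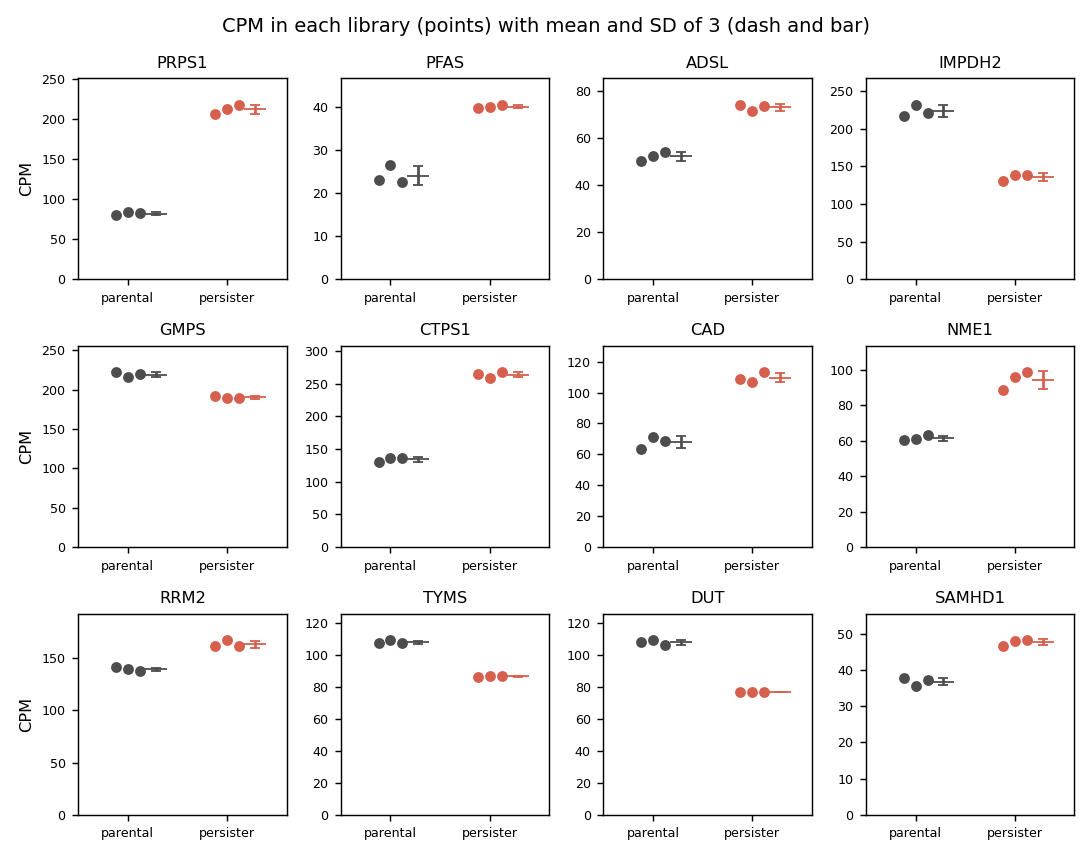
CPM of 12 of the genes that passed the test in each of the 6 libraries, parental in grey and persister in red, with linear axes that start at 0. Points are libraries, and the dash and bar beside them are the mean and SD of 3. The 2 conditions do not overlap in any panel, and the gap is widest relative to the level for PRPS1, at 80.2 to 83.3 CPM against 206 to 218 CPM.

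In the pyrimidine arm 6 of 8 genes changed, 4 higher and 2 lower, or 75.0% beside 56.8% of all genes tested. The median log2 fold change was 0.111. CAD, a single protein with the opening activities of the route, was at 63.6, 71.1 and 68.5 CPM in parental and 109, 107 and 113 CPM in persister libraries. It rose 1.62-fold (log2 0.69, SE 0.0476, adjusted p = 3e-07). UMPS, which ends the route at UMP, was at 45.2, 44.2 and 43.5 CPM in parental and 44.3, 45.0 and 43.4 CPM in persister libraries, with a log2 change of -0.0019 (adjusted p = 0.972). DHODH, the mitochondrial dehydrogenase that acts between CAD and UMPS and belongs to the comparison lists below, was at 11.4 ± 0.231 CPM in parental and 10.1 ± 0.888 CPM in persister cells (log2 change -0.17, adjusted p = 0.0733).

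CTP synthetase converts UTP to CTP, and its 2 genes moved apart. CTPS1 (chr1:40979300-41012565) was at 130, 136 and 136 CPM in parental and 265, 259 and 267 CPM in persister libraries. This 1.97-fold rise (log2 0.97, SE 0.0365, adjusted p = 2.74e-09) was the largest of the arm. CTPS2 was at 31.1, 30.1 and 30.9 CPM in parental and 25.6, 24.2 and 24.0 CPM in persister libraries, a log2 change of -0.32 (SE 0.0493, adjusted p = 0.000164). Because CTPS1 is the more abundant by far, the sum of the pair was 131 ± 1.12 TPM in parental and 233 ± 8.66 TPM in persister cells.

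The uridine and cytidine kinases UCK1 and UCK2 open the salvage of pyrimidine nucleosides. UCK2 was at 78.1, 83.8 and 80.2 CPM in parental and 93.0, 92.8 and 92.9 CPM in persister libraries, a small rise of 0.20 on the log2 scale (SE 0.0398, adjusted p = 0.00093). UCK1 had overlapping groups and a log2 change of 0.02 (adjusted p = 0.795).

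NME1 and NME2 encode the subunits of nucleoside diphosphate kinase, which makes triphosphates from diphosphates of all the bases. They are neighbours on chromosome 17 (chr17:51153559-51162428 and chr17:51165435-51171744). NME1 was at 60.4, 60.7 and 63.0 CPM in parental and 88.4, 95.6 and 98.4 CPM in persister libraries, a rise of 1.53-fold (log2 0.62, SE 0.0475, adjusted p = 7.41e-07). NME2 was at 275, 289 and 288 CPM in parental and 235, 261 and 264 CPM in persister libraries. Its fall (log2 change -0.17, SE 0.0476, adjusted p = 0.00978) lay just inside the limit, and it was lost in 7 of 14 alternative fits, among them every fit that left out 1 library except the first parental one. Without the first persister library the log2 change was -0.11 (adjusted p = 0.0372), and without the third parental library it was -0.16 (adjusted p = 0.0419). The genes share sequence and a readthrough transcript listed as its own gene, NME1-NME2, at 11.3 CPM in parental and 6.92 CPM in persister cells (log2 change -0.71, adjusted p = 0.0019). Its count came to at most 20.8% of that of NME1, so the division of reads among these loci is uncertain. Summed per length, NME1 and NME2 were at 911 ± 39.5 TPM in parental and 925 ± 36.8 TPM in persister libraries.

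In the deoxynucleotide arm 3 genes rose, 2 fell and 5 did not pass the test, with a median log2 fold change of 0.05 and no change above 1.5-fold. Ribonucleotide reductase pairs the large subunit RRM1 with a small subunit, either RRM2, made in S phase, or RRM2B, a p53-induced form that also serves resting cells. RRM1 was at 96.1, 92.1 and 89.2 CPM in parental and 97.9, 97.0 and 93.4 CPM in persister libraries, with a log2 change of 0.06 (adjusted p = 0.258). RRM2 was at 141, 139 and 138 CPM in parental and 161, 167 and 161 CPM in persister libraries, and RRM2B was at 36.8, 32.5 and 36.2 CPM in parental and 44.2, 42.8 and 42.4 CPM in persister libraries. Both small subunits thus rose without overlap, RRM2 by 0.23 (SE 0.0353, adjusted p = 0.000181) and RRM2B by 0.29 (SE 0.0544, adjusted p = 0.000617) on the log2 scale.

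Of the 3 genes of thymidylate supply 2 fell and 1 did not pass the test. TYMS, thymidylate synthase, was at 107, 109 and 107 CPM in parental and 86.3, 86.6 and 86.4 CPM in persister libraries (log2 change -0.32, SE 0.0353, adjusted p = 1.35e-05). DUT, which hydrolyses dUTP to the dUMP that TYMS uses and keeps uracil out of DNA, was at 108, 109 and 106 CPM in parental and 76.8, 76.6 and 76.9 CPM in persister libraries (log2 change -0.48, SE 0.036, adjusted p = 5.66e-07). In both cases the persister libraries, each a pool of cultures, lay within 1 CPM of each other and below all parental libraries. DCTD, which makes dUMP from dCMP, did not overlap between the groups but missed the limit, with a log2 change of 0.11 (adjusted p = 0.0311). The 3 genes summed to 466 ± 6.52 TPM in parental and 397 ± 8.09 TPM in persister cells.

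None of the 3 deoxynucleoside kinases passed the test. TK1, the cytosolic thymidine kinase, had a log2 change of 0.04 (adjusted p = 0.469), TK2, its mitochondrial counterpart, one of -0.18 (adjusted p = 0.0338) and DCK, deoxycytidine kinase, one of -0.20 (adjusted p = 0.0221). SAMHD1, which breaks deoxynucleoside triphosphates down, was at 37.7, 35.6 and 37.1 CPM in parental and 46.7, 48.1 and 48.2 CPM in persister libraries. It rose by 0.37 on the log2 scale (SE 0.044, adjusted p = 2.14e-05).

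Several steps have 2 isoenzymes, and their balance was compared within each library, so that a scaling factor common to the library cancels. The ratio of PRPS1 to PRPS2 per length was 0.923, 0.95 and 0.927 in parental and 2.47, 2.44 and 2.61 in persister libraries, from slightly less PRPS1 than PRPS2 to more. The ratio of CTPS1 to CTPS2 was 7.36, 7.57 and 7.22 in parental and 15.7, 16.8 and 17.5 in persister libraries. That of NME1 to NME2 was 0.17, 0.162 and 0.17 in parental and 0.292, 0.285 and 0.29 in persister libraries, and NME2 remained the more abundant of the pair in all 6. The ratio of IMPDH1 to IMPDH2 was 0.311, 0.326 and 0.316 in parental and 0.539, 0.5 and 0.532 in persister libraries. The log2 ratios differed by 1.42, 1.17, 0.79 and 0.72 for these 4 pairs, against SDs within a condition of at most 0.0802, and by -0.19 for UCK1 over UCK2. With 3 libraries against 3 the exact two-sided permutation test cannot go below p = 0.1, the value it gave for each of these 5 pairs (0.14 after adjustment over the 7 pairs). The ratio of RRM2 to RRM2B overlapped between the groups, with a log2 difference of -0.11 (exact permutation p = 0.4), as did that of TK1 to TK2, with 0.35 (exact permutation p = 0.2).

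**Figure D3:**
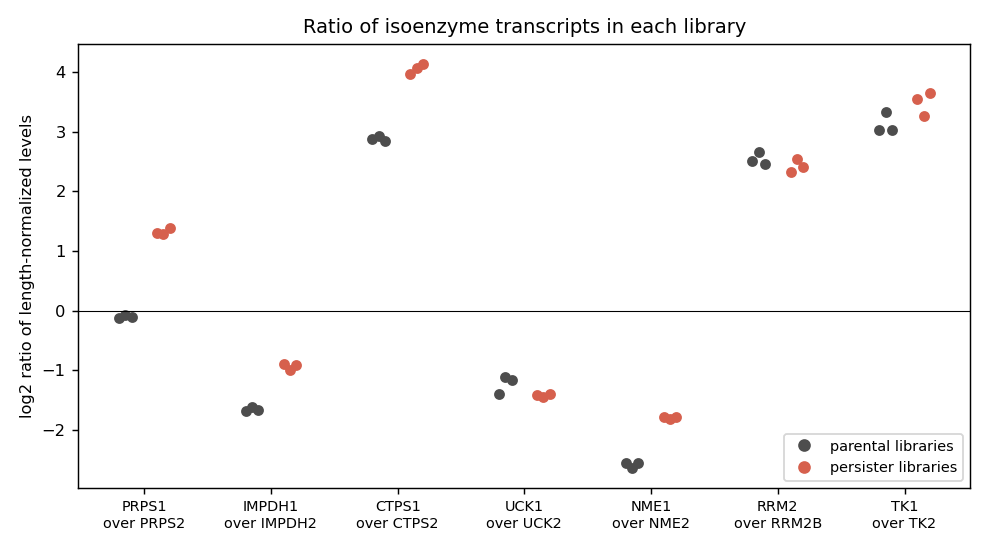
Log2 ratio of the length-normalized levels (TPM) of 2 isoenzymes or subunits in each library, with 3 parental libraries in grey and 3 persister libraries in red for each of 7 pairs. The ratio of PRPS1 to PRPS2 crosses 0, from a mean of -0.10 to 1.32, while RRM2 over RRM2B and TK1 over TK2 overlap between the conditions.

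By level per length, NME2 was the most abundant gene of the list in both conditions, at 780 ± 35.8 TPM in parental and 718 ± 29.3 TPM in persister cells. In parental cells IMPDH2 at 265 ± 14.5 TPM, ATIC at 246 ± 8.44 TPM and DUT at 217 ± 3.97 TPM came next, and the means of IMPDH2 and ATIC overlapped within their SDs. In persister cells ATIC at 249 ± 9.12 TPM, PRPS1 at 247 ± 8.15 TPM, CTPS1 at 220 ± 7.78 TPM and NME1 at 207 ± 7.84 TPM followed NME2. ATIC and PRPS1 did not differ beyond their spread there. The lowest levels in parental cells were those of PFAS at 11.9 ± 1.44 TPM, TK2 at 14.3 ± 0.83 TPM and CTPS2 at 15.6 ± 0.218 TPM.

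At the transcript level, 164 transcripts of the 33 genes were tested, and 9 were higher and 6 lower in persister cells, or 9.15% beside 7.8% of all transcripts tested. No gene had transcripts called in opposite directions. The 3 tested transcripts of PRPS1 all rose, by 1.25 to 1.36 on the log2 scale. The main coding transcript PRPS1-204 held 76.0% ± 4.03 of the gene's counts in parental and 76.6% ± 1.72 in persister libraries and rose by 1.36 (SE 0.0636, adjusted p = 0.000137). CTPS1-217 held 85.3% ± 3.54 in parental and 88.5% ± 0.136 in persister libraries and rose by 1.01 (adjusted p = 0.000185). IMPDH2-201 held 94.6% ± 0.241 and 93.4% ± 1.22 and had a log2 change of -0.76 (adjusted p = 0.000435). In these 3 genes the dominant transcript moved as the gene did.

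Shares of transcripts within a gene could be tested for 32 of the genes. By edgeR's diffSpliceDGE with Simes p-values none passed an adjusted p of 0.01, where 1.88% of all genes tested did, 4 had an unadjusted p under 0.05, and the lowest adjusted p was 0.0181, for NME1. The following transcripts were singled out after their values were seen. GART encodes a full-length enzyme and a short one that ends early. The long coding transcript GART-203 took 42.4%, 47.0% and 45.6% of the gene's counts in parental and 53.3%, 52.3% and 53.4% in persister libraries, and the short GART-201 took 44.6%, 43.5% and 41.6% in parental and 36.6%, 37.5% and 35.7% in persister libraries. GART-201 alone fell by 0.40 on the log2 scale (SE 0.0608, adjusted p = 0.00807), GART-203 had a log2 change of 0.07 (adjusted p = 0.335), and the usage test of GART gave a Simes p of 0.147. ADSL-208, a coding transcript, took 4.72% ± 0.731 of ADSL counts in parental and 9.89% ± 0.702 in persister libraries (log2 change 1.53, SE 0.161, adjusted p = 0.0022). TK2-218, annotated as subject to nonsense-mediated decay, had 27, 25 and 26 counts in the parental libraries and 0 in each persister library, where a count of 0 allows up to 3 counts, or at most 0.468% of the gene's counts. The most counted transcripts of SAMHD1 and UMPS carry the same annotation. SAMHD1-204 held 37.9% ± 10.3 of its gene's counts in parental and 38.2% ± 2.27 in persister libraries. UMPS-204 held 47.9% ± 7.26 in parental and 46.7% ± 1.06 in persister libraries. No tested transcript of SAMHD1 or UMPS passed the limit.

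The 250 bases before the 5′ end of each gene's most counted transcript were searched on both strands for the letters of 6 promoter motifs. CCAAT, the letters of the CCAAT box, was in the windows of 6 of the 10 genes that rose (PRPS1, CAD, UCK2, NME1, RRM2 and SAMHD1), 1 of the 7 that fell (IMPDH2) and 4 of the 16 others. It was in 33.9% of 14016 windows of tested genes, in 33.5% of those of all genes that rose and in 34.0% of those of all genes that fell. CACGTG, the E-box that MYC binds, was in 4 of the 33 windows (PPAT, PAICS, ATIC and DCK, none of which passed the test) and in 8.47% of all windows. E2F letters (TTTCGCGC, TTTGGCGC or TTTCCCGC) were in 3 (PRPS2, GART and TYMS) and in 3.68% of all. The letters TGACGTCA of the cAMP response element were in 2 (IMPDH2 and UMPS) and in 2.6%, TTTGAA of the cell cycle homology region in 1 (UMPS) and in 8.85%, and TGATGNAA of the C/EBP-ATF element in none and in 1.53%. A match of letters is a description and not a site of binding.

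Stretches are shown for the genes with the largest rise of the purine arm (PRPS1), the kinase pair (NME1), the reductase subunit with 3 matches (RRM2), and the 2 genes that fell and held a match (IMPDH2 and TYMS). Capitals mark CCAAT or its reverse complement ATTGG, and in TYMS the reverse complement of the E2F letters. All are from GRCh38 on the strand of the gene. For PRPS1 (chrX:107628260-107628427) and NME1 (chr17:51153309-51153558) the part of the window outside annotated exons is given, and for the others each match to these letters is given with 7 bases on both sides.
PRPS1: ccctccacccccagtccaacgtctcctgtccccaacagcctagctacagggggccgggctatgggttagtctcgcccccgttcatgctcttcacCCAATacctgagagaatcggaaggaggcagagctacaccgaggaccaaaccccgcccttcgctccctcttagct
NME1: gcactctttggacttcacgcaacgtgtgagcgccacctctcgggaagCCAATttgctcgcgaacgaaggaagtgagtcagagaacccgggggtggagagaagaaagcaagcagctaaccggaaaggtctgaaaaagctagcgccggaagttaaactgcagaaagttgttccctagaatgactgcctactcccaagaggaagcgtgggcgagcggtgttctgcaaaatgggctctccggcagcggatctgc
RRM2 match 1 (chr2:10122609-10122627): ggcgcagCCAATgggaagg
RRM2 match 2 (chr2:10122639-10122657): ggcacagCCAATgggaagg
RRM2 match 3 (chr2:10122666-10122684): accaaagCCAATgggaagg
IMPDH2 match 1 (chr3:49029413-49029431): ggtttatATTGGcgcggcc
TYMS match 1 (chr18:657607-657628): gacggccGCGGGAAAaggcgcg
The 3 matches of RRM2 lie 123, 93 and 66 bases before the start and share the same letters on their right side. The CCAAT match of IMPDH2 lies 26 bases and the E2F match of TYMS 39 bases before the start.

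Other genes of nucleotide metabolism were taken as 4 lists of 61 genes in all, of which 55 were tested and 14 were higher and 20 lower in persister cells, with a median log2 fold change of -0.047. Of 15 tested genes for breakdown, nucleotidases and pool sanitation, 1 rose, 6 fell and 8 did not pass the test, with a median of -0.255. XDH, xanthine dehydrogenase, which makes uric acid, was at 12.8 ± 0.595 CPM in parental and 2.23 ± 0.231 CPM in persister cells (log2 change -2.51, SE 0.10, adjusted p = 4.36e-09). NT5E, the surface nucleotidase CD73 that forms adenosine from AMP, was at 170.0 ± 5.09 and 37.1 ± 0.439 CPM (log2 change -2.20, SE 0.0409, adjusted p = 2.17e-11). Both falls were larger in size than any change of the 33 synthesis genes. NT5C, NT5C3A and GDA fell by 0.95, 0.68 and 0.46 on the log2 scale. The summed level of the breakdown list was 815 to 859 CPM in parental and 607 to 614 CPM in persister libraries.

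Of 23 tested genes for further salvage and interconversion, 6 rose and 10 fell. CDA, cytidine deaminase, rose from 18.2 ± 0.86 to 42.0 ± 5.08 CPM (log2 change 1.21, adjusted p = 3.18e-07) and DTYMK, which phosphorylates dTMP, from 73.7 ± 5.72 to 102 ± 1.14 CPM (log2 change 0.47, adjusted p = 1.42e-05). GMPR2, which returns GMP to IMP, fell by 0.69, ADA, adenosine deaminase, by 0.60 and PNP, purine nucleoside phosphorylase, by 0.39 on the log2 scale. Of 5 tested nucleoside transporters only SLC28A3 passed the test, at 0.156 ± 0.0431 CPM in parental and 0.532 ± 0.152 CPM in persister cells.

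Purine synthesis and TYMS draw 1-carbon units from folate, and of 12 genes for folate enzymes and regulators 6 rose and 4 fell. The mitochondrial enzymes MTHFD2 and SHMT2 rose by 0.72 (adjusted p = 3.03e-08) and 0.40 (adjusted p = 9.1e-06) on the log2 scale, and the cytosolic SHMT1 had a log2 change of -0.59 (adjusted p = 1.97e-07). MYC, a transcription factor with many targets in nucleotide synthesis, rose by 0.16 (adjusted p = 0.00772) and E2F1, which drives S-phase genes, by 0.36 (adjusted p = 0.00183). RBL2, a pocket protein of resting cells, had a log2 change of -0.57 (adjusted p = 6.34e-07). The regulators went both ways within each family. RB1 rose by 0.26 (adjusted p = 0.00158), and E2F2 had a log2 change of -0.27 (adjusted p = 0.00523). E2F3 and RBL1 did not pass the test.

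Since RRM2, TYMS, DUT and TK1 follow the cell cycle, 20 genes of S phase and proliferation were set beside them, and 7 rose and 8 fell. MCM2, MCM3, MCM4, MCM5, MCM6 and MCM7, the subunits of the replicative helicase, all fell, with log2 changes from -0.57 for MCM5 to -0.21 for MCM3 and MCM4, as did the sliding clamp PCNA (log2 change -0.24) and UHRF1 (log2 change -0.26). MKI67, which marks cycling cells, rose by 0.71, CLSPN by 0.65 and CCNA2 by 0.44 on the log2 scale. The summed level of the list was 2560 to 2600 CPM in parental and 2560 to 2610 CPM in persister libraries. Beside RRM2B, 12 targets of p53 were listed, of which 7 rose and 3 fell. CDKN1A, the cell cycle inhibitor p21, rose by 1.32 and SESN2 by 1.65, whereas FDXR had a log2 change of -1.05 and DDB2 one of -0.89. The part of the cell cycle and of p53 in the changes of the 33 genes was not tested.

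**Figure D4:**
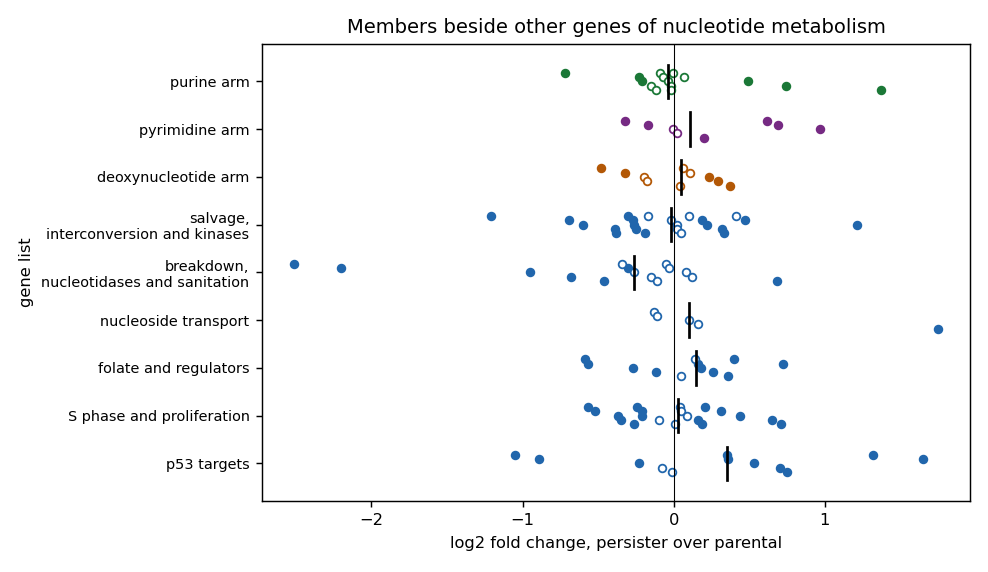
Log2 fold change of each tested gene, persister over parental PC9, for the 3 arms and 6 other gene lists. Filled points have an adjusted p under 0.01, open points do not, and the black line is the median of the list, from -0.255 for breakdown genes to 0.355 for p53 targets. XDH and NT5E lie farthest to the left, at -2.51 and -2.20.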

How the data were processed

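RNA of 3 parental PC9 and 3 persister PC9 libraries was analysed, grouped by the sample labels, with dose and pooling of cultures from the study's methods. The authors prepared poly-A TruSeq libraries, pseudoaligned the reads with Kallisto 0.46.1 to Ensembl 96 transcripts of GRCh38 and deposited estimated counts as whole numbers without normalization, per gene and per transcript. The uncertainty of dividing reads among similar transcripts is not part of any test here, and near-identical genes such as NME1 and NME2 remain uncertain. None of 37 pseudogenes of the members reached 5% of a member's count. Total counts were 29476725 to 34893782 per library, and over the genes compared the spread between replicates exceeded sampling noise in every pair. The share of sampling noise in the error of single genes with low counts was not tested.

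Genes passing filterByExpr were normalized by TMM and tested with glmQLFit and glmQLFTest in edgeR 4.0.16 (R 4.3.3), with Benjamini-Hochberg adjustment over all genes tested and the study's limit of 0.01. The SE is the log2 fold change divided by the square root of F. The steps were tested on simulated data with planted changes larger than most of those reported here, so the recovery of small changes was not tested. TPM was computed from transcript counts and lengths in GENCODE 44, with which 167067 of 188753 transcripts were paired (95.8% of counts). Transcript usage was tested with diffSpliceDGE. Isoenzyme ratios were tested with an exact permutation test, with Benjamini-Hochberg adjustment over the pairs in scipy 1.17.1. Promoter windows were read from GRCh38. Named genes were all members and, from the other lists, up to 5 per direction with the smallest p. Alternatives used DESeq2 1.42.0, limma 3.58.1 voom, other normalizations and filters, a replicate block and each library left out. The members and lists were chosen with earlier results of these data known.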

Additional observations from a re-analysis of the deposited data

How the results depend on the processing

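Of the 17 genes called, 16 passed the limit with the same sign in all 14 alternative fits (2 other tools, 3 other normalizations, no expression filter, summed transcript counts, the replicate block and each library left out). NME2 was lost in 7, with adjusted p-values from 0.00129 to 0.0419. GART passed in 3 fits, APRT in 1 and DCK in 4. Requiring a change above 1.5-fold as well left 6 genes in all, 3 of the purine arm, 3 of the pyrimidine arm and 0 of the deoxynucleotide arm, and a limit of 0.05 gave 8 deoxynucleotide genes. As each library was left out, the count of genes with changed transcript usage ran from 0 to 1 and that of changed genes of the 4 other metabolism lists from 25 to 34. For TK1 over TK2 the log2 difference was 0.22 by CPM, without overlap (exact permutation p = 0.1). With no scaling beyond library size, higher calls made up 43.7% of all calls instead of 50.5%, and the median of all genes moved from -0.006 to -0.059.

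The libraries share replicate numbers but no stated pairing, and same-numbered libraries had correlations of deviations of 0.124, 0.0236 and 0.0215. The replicate block gave 10 higher and 8 lower genes. Signs turned for 6 genes that were not called in these fits. Without the first parental library the log2 changes were 0.03 for ATIC, 0.00051 for ADK, 0.01 for UMPS, -0.03 for UCK1 and -0.0029 for TK1. Without the third persister library they were 0.0058 for PAICS, 0.0022 for ATIC and 0.01 for UMPS, and without the second -0.01 for UCK1. As each library was left out, PAICS ran from -0.05 to 0.0058 and UCK1 from -0.03 to 0.04. DESeq2 gave 0.00013 for ATIC and 0.0031 for UMPS, its size factors in edgeR 0.0013 for UMPS, no expression filter 0.0023 for UMPS, upper-quartile normalization -0.02 for UCK1, and library size only -0.04 for UCK1 and -0.0097 for TK1.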
